A study of Mus musculus with 2 samples.

Results

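The cells described here are cultured mouse spermatogonia with high summed transcript levels of Nanos3, Egr4, Pdk1, Asb9 and Igfbp6. They were selected on those 5 genes: of all germ cells in both libraries, the 15% with the highest share of their unique molecular identifiers (UMIs, each counted as 1 captured RNA molecule) in the 5 genes were taken. This gave 224 of 1490 germ cells, out of 1676 complete cells, and they are called Nanos3/Egr4-high cells. A germ cell had at least 1000 UMIs and more UMIs of Ddx4, Dazl, Mael, Dnd1 and Zbtb16 together than of Col1a1, Col1a2, Col3a1, Fn1 and Sparc together. The study knocked down Chd4, which encodes a chromatin remodelling enzyme of the NuRD complex, and each condition is 1 library of 10x Genomics v2 chemistry. One library received Chd4 siRNA and the other a non-targeting control siRNA. In both, undifferentiated spermatogonia of adult C57BL/6 testes, isolated by magnetic selection for THY1, had been grown without serum on mitomycin-treated SNL76/7 embryonic fibroblasts with GDNF and bFGF. They were then lifted off the feeders and transfected on plastic with 75 pmol siRNA and 2 µL Lipofectamine for 24 h, after which cells of 3 biological replicates were mixed evenly into 1 tube per condition, so the replicates could not be separated.

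Undifferentiated spermatogonia range from stem cells, which renew themselves in response to GDNF, to progenitors that are moving towards differentiation under retinoic acid. Nanos3, a germ cell RNA-binding protein, is known in mouse testis as a gene of the progenitor side, while Nanos2, its relative, is tied to stem cell maintenance. Egr4 is a zinc finger transcription factor of the early growth response family that male mice need for normal fertility. Pdk1 is a kinase that restrains the entry of pyruvate into mitochondrial oxidation, Asb9 is a substrate adaptor of a ubiquitin ligase, and Igfbp6 is a secreted protein that binds insulin-like growth factor 2.

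The Chd4 siRNA library held 760 germ cells and the control siRNA library 730. Median depth was 14668 UMIs in Nanos3/Egr4-high cells of the Chd4 siRNA library and 14867 in those of the control siRNA library, against 15625 and 15334 in the other germ cells of the same libraries. A level is given as UMIs per 1000000 UMIs (CPM) summed over a set of cells. A difference is a log2 ratio with its 95% interval of counting error, and a gene is counted as higher or lower past 1.5-fold. Cells are not replicates and each condition is 1 library, so no difference was tested and no p-value is given; all intervals cover counting error only. In bulk sums of this kind, a gene present in more cells and a gene at a higher level per cell cannot be told apart. The 5 germ cell genes of the gate summed to 2091 CPM (Chd4 siRNA) and 1847 CPM (control siRNA) in Nanos3/Egr4-high cells, against 1933 and 1762 CPM in other germ cells. Of 16 fibroblast markers, 15 were found in Nanos3/Egr4-high cells and Col6a1 was at 0. Their sum was 138 CPM (Chd4 siRNA) and 117 CPM (control siRNA), against 114 and 125 CPM in other germ cells, and it was 5472 and 4987 CPM in the fibroblast-like cells that the gate had set aside. Scrublet called 0 Nanos3/Egr4-high cells of the Chd4 siRNA library and 2 of the control siRNA library doublets. Among the barcodes available, the libraries shared 1 cell barcode, and it belonged to no Nanos3/Egr4-high cell. For 61 complete cells of the Chd4 siRNA library no barcode was available, so this count does not cover them.

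The 5 genes that chose the cells are given as a description. Nanos3 stood at 115 CPM in the Chd4 siRNA library and 146 CPM in the control siRNA library, against 30.4 and 29.4 CPM in other germ cells. Egr4 had 284 CPM (Chd4 siRNA) and 242 CPM (control siRNA), against 60.9 and 61.8 CPM. Pdk1 had 269 and 326 CPM, against 87.2 and 96.3 CPM in other germ cells of the same 2 libraries. UMIs of at least 3 of the 5 genes were present in 87.0% of Nanos3/Egr4-high cells in the Chd4 siRNA library and 83.6% in the control siRNA library, against 32.4% and 30.9% of other germ cells, a contrast that the choice of cells by the sum fixes in part. Asb9 reached 129 CPM (Chd4 siRNA) and 85.8 CPM (control siRNA), against 19.9 and 18.1 CPM, and Igfbp6 reached 169 and 149 CPM, against 27.3 and 22.9 CPM. The name of the cells describes the set and not each cell. A Nanos3 UMI was present in 71 of 108 Nanos3/Egr4-high cells of the Chd4 siRNA library and 79 of 116 of the control siRNA library. An Egr4 UMI was present in 93 and 100 of the same cells. In other germ cells the shares were 34.0% (Chd4 siRNA) and 31.6% (control siRNA) for Nanos3 and 52.1% in either library for Egr4. The cells rested on few molecules each. Their median was 13 UMIs of the 5 genes in the Chd4 siRNA library and 12 in the control siRNA library, against 3 in other germ cells of either library. The threshold cut through a continuum: the last cell inside it had 610.625 CPM of the 5 genes and the first cell outside it 610.554 CPM, and the next were at 610.923 and 608.504 CPM.

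Each score gene was then measured in cells that it had not helped to choose, the 15% highest by the other 4 genes. All 5 were higher there in both libraries. Asb9, with 106 CPM in the Chd4 siRNA library and 72.8 CPM in the control siRNA library, against 24.98 and 19.6 CPM in the remaining germ cells, had log2 ratios of 2.09 (1.79 to 2.38) and 1.89 (1.57 to 2.22). Pdk1 had the smallest ratios, 1.01 (0.84 to 1.19) in the Chd4 siRNA library and 1.05 (0.89 to 1.22) in the control siRNA library. The log2 ratios of Nanos3 were 1.47 (1.19 to 1.74) and 1.66 (1.40 to 1.92), those of Egr4 1.24 (1.04 to 1.44) and 1.28 (1.08 to 1.47), and those of Igfbp6 1.78 (1.52 to 2.04) and 2.08 (1.82 to 2.35), in the Chd4 siRNA and control siRNA libraries. The transcripts of the 5 genes thus lay in the same cells more often than in the rest. The 5 genes had been chosen with earlier results of these data known. Neither this check nor the next, both made on the same cells, was independent of that choice. Choosing cells on 50% of each cell's UMIs, drawn at random, and measuring on the rest gave log2 ratios between 1.28 and 2.21 for the 5 genes. Igfbp6 was also a transcript of the fibroblast-like cells, at 91.7 CPM (Chd4 siRNA) and 58.9 CPM (control siRNA), and at 9000 UMIs per cell it was found in 50% (Chd4 siRNA) and 38.7% (control siRNA) of them, against 2.33% and 1.33% for Egr4. The part of fibroblast RNA in the score was not tested. With the other 4 genes alone, 194 of the 224 cells were chosen again.

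**Figure D1:**
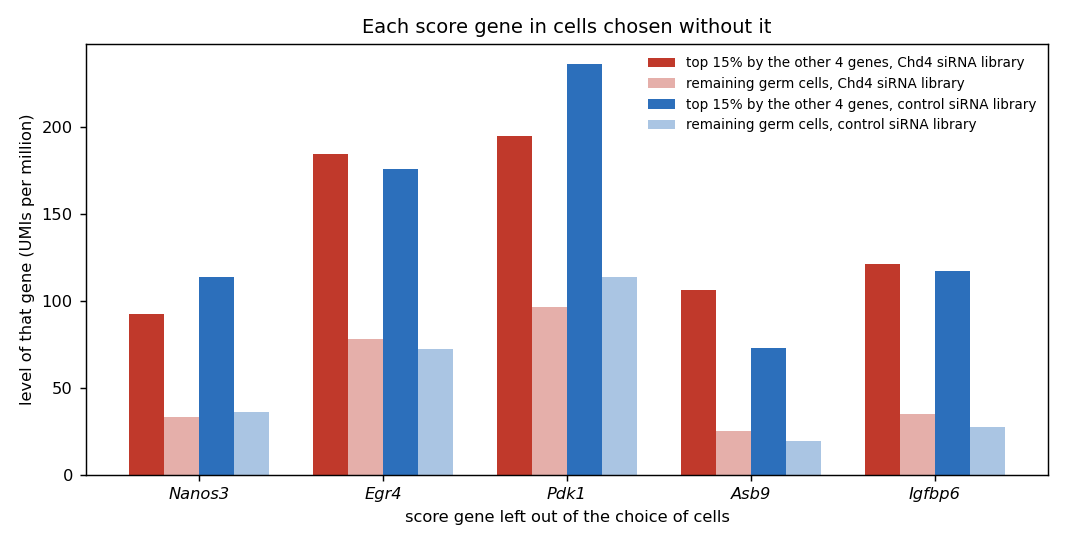
Level of each score gene (CPM, vertical axis) in the 15% of germ cells ranked highest by the other 4 genes (solid bars) and in the remaining germ cells (pale bars), with the Chd4 siRNA library in red and the control siRNA library in blue. Solid bars stand above pale bars of the same colour for all 5 genes, with log2 ratios between 1.01 and 2.09.

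The starts of Nanos3 and Egr4, the genes the cells are called by, and of Hmgn5 and Sohlh1, the chromatin and the differentiation gene that follow, are shown because they are where shared motifs would lie. Each run is the 250 bases before the RefSeq gene start in GRCm38.p6, on the gene's own strand, which is the minus strand for all of them. They lie at chr8:84176553-84176802, chr6:85513590-85513839, chrX:109013381-109013630 and chr2:25847249-25847498. The Nanos3 window lies inside the longer span of the gene in GENCODE M21, chr8:84173731-84185217. The bases before that further start were not searched. Capitals mark motif matches on either strand. The motif TGACGT is a core piece of the cAMP response element and appears as its reverse complement in Egr4. The E-box CACGTG is of the kind bound by basic helix-loop-helix factors. The core of a hypoxia response element, ACGTG, lies inside every such E-box and appears as its reverse complement in Hmgn5.
Nanos3: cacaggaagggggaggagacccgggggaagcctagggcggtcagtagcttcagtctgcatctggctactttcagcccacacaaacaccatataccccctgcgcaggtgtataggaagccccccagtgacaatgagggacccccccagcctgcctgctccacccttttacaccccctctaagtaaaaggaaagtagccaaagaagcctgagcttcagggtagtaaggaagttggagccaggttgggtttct
Egr4: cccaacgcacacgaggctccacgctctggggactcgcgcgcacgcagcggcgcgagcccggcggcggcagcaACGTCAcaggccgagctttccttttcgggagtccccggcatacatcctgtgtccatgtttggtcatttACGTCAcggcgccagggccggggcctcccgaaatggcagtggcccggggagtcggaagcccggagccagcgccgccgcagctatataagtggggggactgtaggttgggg
Hmgn5: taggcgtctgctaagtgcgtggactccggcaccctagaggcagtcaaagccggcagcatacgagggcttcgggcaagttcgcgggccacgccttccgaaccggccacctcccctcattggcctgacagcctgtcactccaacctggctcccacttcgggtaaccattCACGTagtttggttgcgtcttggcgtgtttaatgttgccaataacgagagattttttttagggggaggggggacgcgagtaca
Sohlh1: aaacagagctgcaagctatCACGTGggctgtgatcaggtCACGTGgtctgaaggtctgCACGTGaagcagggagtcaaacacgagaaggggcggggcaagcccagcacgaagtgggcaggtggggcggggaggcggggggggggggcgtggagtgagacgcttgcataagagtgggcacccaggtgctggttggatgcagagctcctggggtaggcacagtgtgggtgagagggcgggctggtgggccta

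Egr4 carried 2 copies of the cAMP element core, a motif searched for after its window had been read, and Sohlh1 carried 3 E-boxes. The windows of Nanos3 and of the other score genes Pdk1, Asb9 and Igfbp6, the latter not printed, had none of the motifs searched. Nor had that of Gm9112, a higher gene, while Bmp4, a lower gene, also carried CACGTG. Among the genes higher in Nanos3/Egr4-high cells, described next, 91 had a window, with these shares: TGACGT was in 7.69% of them against 11.6% of 6444 windows of tested genes, CACGTG in 8.79% against 10.1%, and ACGTG in 26.4% against 24.4%. The EGR consensus, searched as GCGTGGGCG or GCGGGGGCG, was in 7.69% of the higher genes' windows, 2.94% of 68 windows of lower genes and 5.99% of all. A match is a stretch of letters and does not show binding.

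Outside the 5 score genes, 8244 genes had at least 200 UMIs over all germ cells. Of these, 116 were at least 1.5-fold higher in Nanos3/Egr4-high cells in both libraries, 1.41% of those tested, and 97 were lower, 1.18%. A further 15 genes passed 1.5-fold in opposite directions in the 2 libraries. The median log2 ratio over all tested genes was 0.04 in the Chd4 siRNA library and 0.00 in the control siRNA library. TMM scaling changed the balance to 90 higher and 129 lower genes. The interval stayed off 0 in both libraries for 102 of the 116 higher and 63 of the 97 lower genes.

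The higher genes were led by Hmgn5, which encodes a protein that binds nucleosomes and loosens compact chromatin, and by a pair of X-linked genes of unknown role. Hmgn5 (chrX:109004534-109013404) had 163 CPM in Nanos3/Egr4-high cells of the Chd4 siRNA library, against 42.3 CPM in other germ cells, and 159 CPM in those of the control siRNA library, against 31.0 CPM. The log2 ratios were 1.95 (1.72 to 2.17) and 2.36 (2.12 to 2.60). At 9000 UMIs per cell, an Hmgn5 UMI was found in 54.8% (Chd4 siRNA) and 49.0% (control siRNA) of Nanos3/Egr4-high cells, in 20.3% and 19.01% of other germ cells, and in 11.6% and 16% of fibroblast-like cells. Hmgn5 has a partial pseudogene copy, Gm11914, in the GENCODE annotation, which was not analysed here. Its level was graded along the score. In the Chd4 siRNA library it was 14.3 CPM in the lowest 25% of germ cells, 33.2 CPM in the next 25%, 57.2 CPM from 50% to 75%, 93.0 CPM from 75% to 85% and 163 CPM in the top 15%. In the control siRNA library the same 5 bins had 20.4, 24.9, 39.1, 51.5 and 159 CPM, so there most of the step lay between the last bins.

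Gm9112 (chrX:102706890-102707635) had 133 CPM in Nanos3/Egr4-high cells of the Chd4 siRNA library, against 23.2 CPM in other germ cells, and 113 CPM in those of the control siRNA library, against 20.5 CPM, with log2 ratios of 2.52 (2.25 to 2.79) and 2.46 (2.17 to 2.75). Its neighbour 1700011M02Rik (chrX:102908905-102909651) had 58.2 CPM against 9.18 CPM in the Chd4 siRNA library and 44.9 CPM against 11.2 CPM in the control siRNA library, with log2 ratios of 2.66 (2.24 to 3.09) and 2.01 (1.57 to 2.44). The transcripts of these 2 genes are near copies, equal at 397 of 420 bases (94.5%) in GENCODE M21, so how reads were divided between them is uncertain and they should be read as 1 signal. A Gm9112 UMI was found in 52 of 108 Nanos3/Egr4-high cells of the Chd4 siRNA library and 57 of 116 of the control siRNA library, in 119 of 652 and 108 of 614 other germ cells, and in 3 of 92 and 4 of 79 fibroblast-like cells, which were deeper.

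Both lie on the X chromosome, as did other higher genes. The X chromosome held 11 of the 116 higher genes (9.48%) and 1 of the 97 lower genes, against 293 of the 8244 tested (3.55%). The near copies Gm9112 and 1700011M02Rik, to be read as 1 signal, are both counted among the 11. Chromosome X was singled out after its values were seen. Other chromosomes also departed from their share of tested genes. Chromosome 7 held 12.9% of the higher genes against 7.73% of those tested, and chromosome 8 held 13.4% of the lower genes against 6.00%. Zmym3, a chromatin-associated zinc finger protein, had 135 CPM against 66.7 CPM in the Chd4 siRNA library and 118 CPM against 63.1 CPM in the control siRNA library. Ogt, the enzyme that attaches N-acetylglucosamine to nuclear and cytosolic proteins, had 82.4 CPM against 42.7 CPM and 71.0 CPM against 36.3 CPM in the Chd4 siRNA and control siRNA libraries. Others included Nup62cl, 2210013O21Rik, Ribc1, Slc25a14 and Gprasp2, the last with an interval that included 0 in the Chd4 siRNA library.

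Other higher genes near the top of the ranking had various known roles. Sgk1, a kinase induced by serum and glucocorticoids, had 38.8 CPM in Nanos3/Egr4-high cells against 11.6 CPM in other germ cells of the Chd4 siRNA library and 21.6 CPM against 6.60 CPM in the control siRNA library, with log2 ratios of 1.74 (1.28 to 2.18) and 1.71 (1.09 to 2.31). Glipr2, a Golgi-associated protein, had log2 ratios of 1.83 (1.42 to 2.23) in the Chd4 siRNA library and 1.88 (1.42 to 2.33) in the control siRNA library. Chaf1b, a subunit of the histone chaperone CAF-1, had 47.3 CPM against 17.4 CPM in the Chd4 siRNA library and 36.4 CPM against 14.1 CPM in the control siRNA library. Ptgr1, a prostaglandin reductase, had log2 ratios of 1.64 (Chd4 siRNA) and 1.49 (control siRNA). Ccdc141 had 1.19 and 1.22, and Cox7a1, an isoform of a cytochrome c oxidase subunit, 1.20 and 1.47. Anxa2, an annexin that binds membranes, had 51.5 CPM against 22.6 CPM in the Chd4 siRNA library and 53.4 CPM against 17.2 CPM in the control siRNA library. It is abundant in the fibroblast-like cells, at 445 CPM (Chd4 siRNA) and 389 CPM (control siRNA), and the part of free fibroblast RNA in its difference was not tested. Emp2, a tetraspan membrane protein, had log2 ratios of 1.18 and 1.44, against 46.8 CPM (Chd4 siRNA) and 27.4 CPM (control siRNA) in fibroblast-like cells. Those cells also had Sgk1 at 34.8 and 40.6 CPM, Glipr2 at 26.6 and 26.5 CPM, Chaf1b at 8.49 and 7.88 CPM, Ptgr1 at 9.31 and 3.78 CPM, Ccdc141 at 10.1 and 5.67 CPM and Cox7a1 at 0.548 and 2.21 CPM in the Chd4 siRNA and control siRNA libraries.

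**Figure D2:**
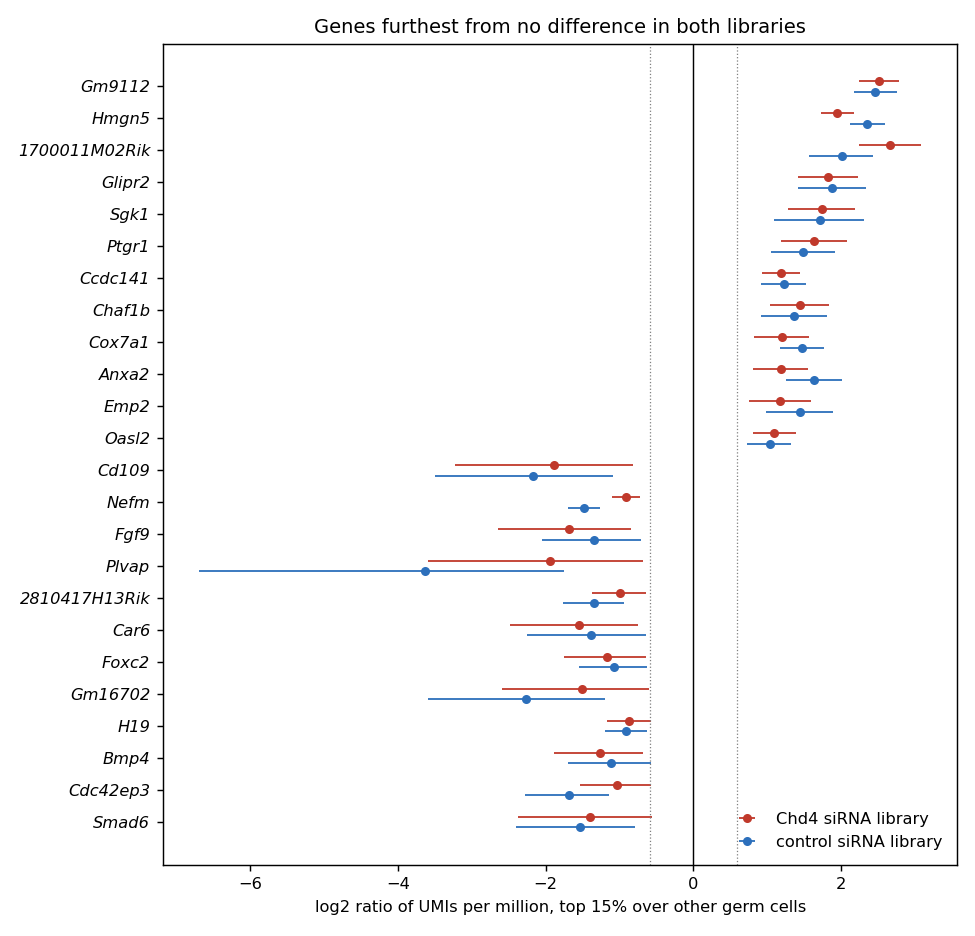
Log2 ratio of Nanos3/Egr4-high cells over other germ cells (horizontal axis) for the 12 higher and 12 lower genes ranked first by how far the interval's inner end lies from 0, in the Chd4 siRNA library (red) and the control siRNA library (blue). Points are ratios of summed CPM, bars are 95% intervals of counting error, and dotted lines mark 1.5-fold. The higher genes run from Gm9112 at 2.52 and 2.46 to Oasl2 at 1.10 and 1.03, and every bar lies on 1 side of 0.

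Of 10 measured genes of the spermatogonial progenitor list, 5 were at least 1.5-fold higher in both libraries and 0 lower. Counted by sign alone, 7 were above no difference in both libraries and 2 below. No count by sign over all genes is given, so counts by sign, here and for the lists below, only describe each list. The list's median log2 ratio was 0.67 in the Chd4 siRNA library and 0.43 in the control siRNA library, against 0.04 and 0.00 over the 11242 genes with at least 50 UMIs, of which 272 (2.42%) were higher and 337 (3.00%) lower in both libraries. Lists were measured at this lower minimum because most progenitor genes were sparse. Sox3, a transcription factor of progenitor spermatogonia, had 18.2 CPM against 6.34 CPM in the Chd4 siRNA library and 16.5 CPM against 4.77 CPM in the control siRNA library, with log2 ratios of 1.52 (0.85 to 2.16) and 1.79 (1.07 to 2.49). A Sox3 UMI was present in 24 of 108 Nanos3/Egr4-high cells of the Chd4 siRNA library and 19 of 116 of the control siRNA library. Rarg, the retinoic acid receptor of progenitors, had log2 ratios of 0.91 (0.12 to 1.65) and 1.23 (0.46 to 1.95). Upp1, uridine phosphorylase, had 1.09 (0.18 to 1.94) and 2.07 (1.0004 to 3.11). Lin28a, which blocks maturation of let-7 microRNAs, had 27.3 CPM against 14.3 CPM in the Chd4 siRNA library and 23.9 CPM against 15.5 CPM in the control siRNA library. Neurog3, a progenitor transcription factor, was also past 1.5-fold higher in both libraries, but on few molecules. It rested on 8 UMIs in Nanos3/Egr4-high cells of the Chd4 siRNA library and 17 in those of the control siRNA library. A single cell of the control siRNA library held 7 of those 17. Leaving out the Neurog3 UMIs of the 5 richest cells of each set, with total UMIs unchanged, gave 1.21 CPM against 2.27 CPM (Chd4 siRNA). In the control siRNA library it gave 2.84 CPM against 2.03 CPM. This took 6 of 8 UMIs (Chd4 siRNA) and 12 of 17 (control siRNA) from Nanos3/Egr4-high cells. From the larger sets of other germ cells it took 9 of 33 and 6 of 26, so it cannot show a direction.

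Of 11 measured genes of differentiating spermatogonia, 1 was higher past 1.5-fold in both libraries, Sohlh1, and 1 lower, Prss50. By sign alone 9 were above no difference and 1 below, with medians of 0.42 (Chd4 siRNA) and 0.28 (control siRNA). Sohlh1, a basic helix-loop-helix factor required for differentiation and the gene with 3 E-boxes above, had 162 CPM in Nanos3/Egr4-high cells against 104 CPM in other germ cells of the Chd4 siRNA library, and 147 CPM against 94.0 CPM in the control siRNA library. Its log2 ratios were 0.64 (0.44 to 0.83) and 0.65 (0.44 to 0.85). Sohlh2, its partner, had 46.1 CPM against 30.1 CPM and 34.1 CPM against 23.7 CPM in the Chd4 siRNA and control siRNA libraries. Tex15, a germ cell protein of transposon silencing and meiotic recombination, had log2 ratios of 0.54 (0.40 to 0.68) and 0.28 (0.12 to 0.44). Stra8, which retinoic acid induces at the entry to differentiation, was sparse, with log2 ratios of 1.75 (0.55 to 2.86) in the Chd4 siRNA library and 0.28 (−1.47 to 1.71) in the control siRNA library. Prss50, a testis serine protease, rested on 1 UMI in Nanos3/Egr4-high cells of the Chd4 siRNA library and 2 in those of the control siRNA library, with log2 ratios of −2.88 (−8.21 to −0.33) and −1.97 (−5.06 to −0.04). Genes of meiosis were not higher as a group, with medians of −0.13 and −0.14 over 11 genes.

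Among 13 genes common to undifferentiated spermatogonia, 1 was higher past 1.5-fold in both libraries, Lin28a, which is also in the progenitor list, and 1 lower, Foxc2. By sign 6 were above and 4 below no difference, with medians of −0.01 (Chd4 siRNA) and 0.15 (control siRNA). Elavl2, a neuronal-type RNA-binding protein, had log2 ratios of −0.46 (−0.69 to −0.24) and −0.52 (−0.76 to −0.30). Dppa3, a germline and oocyte chromatin protein, had log2 ratios of 0.84 (0.48 to 1.20) and 0.55 (0.09 to 0.98). Zbtb16, the zinc finger repressor of undifferentiated spermatogonia, helped to gate the germ cells but was no part of the score. It had 157 CPM against 97.6 CPM in the Chd4 siRNA library and 140 CPM against 95.3 CPM in the control siRNA library.

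The lower genes included Foxc2, a forkhead factor known in mouse testis from slowly cycling stem cells. Foxc2 (chr8:121116171-121118895) had 18.8 CPM in Nanos3/Egr4-high cells of the Chd4 siRNA library, against 42.3 CPM in other germ cells, and 25.6 CPM in those of the control siRNA library, against 53.7 CPM. The log2 ratios were −1.17 (−1.75 to −0.64) and −1.07 (−1.54 to −0.63). At 9000 UMIs per cell it was found in 12.9% (Chd4 siRNA) and 14.7% (control siRNA) of Nanos3/Egr4-high cells and in 29.2% and 34.5% of other germ cells, and fibroblast-like cells had 10.5% and 9.33%. Cd109, a membrane protein that binds TGF-beta and its receptor, was the first by rank, with 7 UMIs in Nanos3/Egr4-high cells of each library and log2 ratios of −1.89 (−3.23 to −0.81) and −2.17 (−3.50 to −1.09). Nefm, a neurofilament subunit and the most abundant of these genes, had 157 CPM against 295 CPM in the Chd4 siRNA library and 103 CPM against 288 CPM in the control siRNA library. The annotated Nefm locus overlaps Nefl on the opposite strand, and Nefl had only 73 UMIs over all germ cells. H19, an imprinted non-coding RNA, had 64.3 CPM against 117 CPM and 67.6 CPM against 127 CPM in the Chd4 siRNA and control siRNA libraries. Fgf9, a growth factor that in mouse testis maintains the male germ cell fate, had log2 ratios of −1.68 (−2.65 to −0.85) in the Chd4 siRNA library and −1.34 (−2.05 to −0.70) in the control siRNA library. Plvap had −1.94 and −3.63 on 5 and 2 UMIs in Nanos3/Egr4-high cells, Car6, a secreted carbonic anhydrase, −1.55 and −1.39, Gm16702 −1.51 and −2.26, and Cdc42ep3, an effector of the GTPase CDC42, −1.03 and −1.68.

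Of 19 genes of self-renewal and of the GDNF response, 3 were lower past 1.5-fold in both libraries and 0 higher. By sign 12 were below and 6 above no difference, with medians of −0.34 (Chd4 siRNA) and −0.21 (control siRNA). Tspan8, a tetraspanin of spermatogonia rich in stem cell activity, had 19.4 CPM against 43.7 CPM in the Chd4 siRNA library and 22.7 CPM against 42.0 CPM in the control siRNA library, with log2 ratios of −1.17 (−1.74 to −0.65) and −0.89 (−1.39 to −0.42). T, the transcription factor brachyury, was found in 3 of 108 Nanos3/Egr4-high cells and 138 of 652 other germ cells of the Chd4 siRNA library, and in 9 of 116 and 126 of 614 of the control siRNA library. Tcl1, a coactivator of AKT, had log2 ratios of −0.86 (−1.19 to −0.54) and −0.44 (−0.75 to −0.15). Etv5, a GDNF-induced factor, had log2 ratios of −0.48 (−0.79 to −0.17) in the Chd4 siRNA library and −0.11 (−0.38 to 0.16) in the control siRNA library. Ret, the GDNF receptor, had −0.31 (−0.59 to −0.03) and −0.21 (−0.48 to 0.06). The group was not uniform: Sdc4, a heparan sulfate proteoglycan that is abundant in these cells, had 1146 CPM against 780 CPM in the Chd4 siRNA library and 1095 CPM against 731 CPM in the control siRNA library, with log2 ratios of 0.56 (0.48 to 0.63) and 0.58 (0.51 to 0.66). Nanos2, the gene tied to stem cell maintenance, was not lower either. A Nanos2 UMI was found in 51 of 116 Nanos3/Egr4-high cells and 152 of 614 other germ cells of the control siRNA library. In the Chd4 siRNA library it was found in 28 of 108 and 155 of 652, and its levels are given further below.

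Feedback genes of receptor tyrosine kinase and MAP kinase signalling had medians of −0.29 (Chd4 siRNA) and −0.54 (control siRNA), with 2 of 13 lower past 1.5-fold in both libraries, Dusp4 and Spry2, and 0 higher. By sign 7 were below no difference in both libraries and 4 above. Dusp4, a MAP kinase phosphatase, had 8.49 CPM against 24.8 CPM in the Chd4 siRNA library and 10.2 CPM against 24.2 CPM in the control siRNA library. Spry2, an inhibitor of the same pathway, had log2 ratios of −0.96 (−2.12 to 0.02) and −0.64 (−1.43 to 0.07), and Dusp6, an ERK phosphatase, −0.44 (−0.81 to −0.09) and −0.94 (−1.36 to −0.55). Phlda1 had 0.46 (0.08 to 0.82) and 0.43 (0.06 to 0.79).

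Genes of BMP signalling, a list drawn up after their values were seen, included 3 of 12 that were lower past 1.5-fold in both libraries and 0 that were higher. By sign 5 were below and 3 above no difference, and the medians were −0.22 (Chd4 siRNA) and 0.05 (control siRNA). Bmp4, the ligand, had 15.8 CPM against 37.8 CPM in the Chd4 siRNA library and 17.1 CPM against 36.8 CPM in the control siRNA library. Smad6, the inhibitory SMAD that BMP signalling induces, had 7.27 CPM against 19.2 CPM and 8.53 CPM against 24.8 CPM, and Id3, a target of the pathway, 20.004 CPM against 46.0 CPM and 27.3 CPM against 53.2 CPM, in the Chd4 siRNA and control siRNA libraries. The receptor Bmpr1a had log2 ratios of 0.02 and 0.10, the signalling protein Smad1 0.33 and 0.44, and Bmp8b, another ligand, 0.54 and 0.56.

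The relatives of the score genes differed in direction. Nab1, a corepressor that binds EGR proteins, was higher, with 47.3 CPM against 20.6 CPM in the Chd4 siRNA library and 31.8 CPM against 16.4 CPM in the control siRNA library. Egr2 was lower, with 27.9 CPM against 50.4 CPM and 29.0 CPM against 56.9 CPM, while Egr1 had log2 ratios of 0.30 (0.02 to 0.56) and 0.50 (0.24 to 0.75). Other immediate early genes divided as well. Klf2, a Krüppel-like factor, had log2 ratios of 0.69 (0.14 to 1.21) in the Chd4 siRNA library and 1.06 (0.73 to 1.39) in the control siRNA library, Ier5 had −0.95 (−1.53 to −0.41) and −1.48 (−2.17 to −0.86), and Myc had −0.69 (−1.86 to 0.30) and −2.67 (−4.97 to −1.09). The immediate early list as a whole had medians of 0.05 and −0.08 over 19 genes, with 1 higher and 4 lower past 1.5-fold in both libraries. Among the genes around Pdk1, glycolysis had medians of −0.08 and 0.06 over 17 genes, entry of pyruvate to mitochondria −0.01 and 0.05 over 10, and the hypoxia response 0.10 and 0.07 over 19. Ldhb, a lactate dehydrogenase subunit, was the only glycolysis gene higher past 1.5-fold in both libraries, with log2 ratios of 1.13 (0.55 to 1.68) and 1.03 (0.43 to 1.59), and the enolase Eno2 was the only one lower, on 3 UMIs in Nanos3/Egr4-high cells of the Chd4 siRNA library and 1 in those of the control siRNA library. Of the hypoxia genes 0 were higher and 2 lower, the repressor Bhlhe40, with −0.97 (−1.67 to −0.34) and −1.39 (−2.48 to −0.47), and Pfkfb4, with −0.64 and −1.56 on 4 and 2 UMIs. The 8 measured genes of the IGF system had medians of −0.08 and −0.15, and none of them passed 1.5-fold in both libraries.

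Interferon and antigen presentation genes, another list drawn up after their values were seen, had medians of 0.36 (Chd4 siRNA) and 0.38 (control siRNA), with 14 of 25 above no difference, 2 below and 6 higher past 1.5-fold in both libraries. Oasl2, an interferon-induced relative of oligoadenylate synthetases, had 80.6 CPM against 37.7 CPM in the Chd4 siRNA library and 73.3 CPM against 35.8 CPM in the control siRNA library. Tapbp, the peptide-loading factor tapasin, had 197 CPM against 112 CPM and 167 CPM against 111 CPM, and Psmb8, an immunoproteasome subunit, had log2 ratios of 1.16 (0.57 to 1.72) and 1.27 (0.70 to 1.82). Ifi35, Ly6e and Isg15 were the other 3. B2m, the MHC class I light chain, had log2 ratios of −0.11 (Chd4 siRNA) and −0.14 (control siRNA).

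Of 40 S phase genes, 2 were lower past 1.5-fold in both libraries, Prim1 and Rrm2, and 1 was higher, Chaf1b, so few passed the threshold either way. By sign alone 29 were below no difference in both libraries and 5 above, with medians of −0.32 (Chd4 siRNA) and −0.22 (control siRNA). 2810417H13Rik, the PCNA-associated factor also named Pclaf, had 41.2 CPM against 82.2 CPM in the Chd4 siRNA library and 30.1 CPM against 76.2 CPM in the control siRNA library, but the direction did not hold among cells called G1 or G2/M. Rrm2, a subunit of ribonucleotide reductase, had log2 ratios of −0.66 (−1.29 to −0.09) and −0.70 (−1.36 to −0.10). Of 50 measured G2/M genes, 1 was lower in both libraries, Gtse1, and 27 had opposite signs, with medians of −0.05 (Chd4 siRNA) and −0.18 (control siRNA). At 9000 UMIs per cell, S phase was called in 22.6% of Nanos3/Egr4-high cells and 31.6% of other germ cells of the Chd4 siRNA library, a difference of −8.98 points (−17.2 to 1.16), and in 29.4% and 27.0% of the control siRNA library, 2.41 points (−6.42 to 12.5). G1 was called in 60.2% against 49.7% in the Chd4 siRNA library and in 50% against 51.3% in the control siRNA library, and G2/M in 17.2% against 18.8% and 20.6% against 21.7%. All 6 intervals included 0, after 15 and 14 Nanos3/Egr4-high cells and 50 and 51 other germ cells of the Chd4 siRNA and control siRNA libraries had been left out as too shallow. This did not hold for the Chd4 siRNA library under other settings: of 12 alternatives, the interval left 0 for S phase in 5 and for G1 in 7. Without thinning, for example, S phase differed by −11.4 points (−16.96 to −3.70) and G1 by 10.7 points (0.75 to 19.5). The free RNA in the droplets, which phase calls also read, was not tested.

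**Figure D3:**
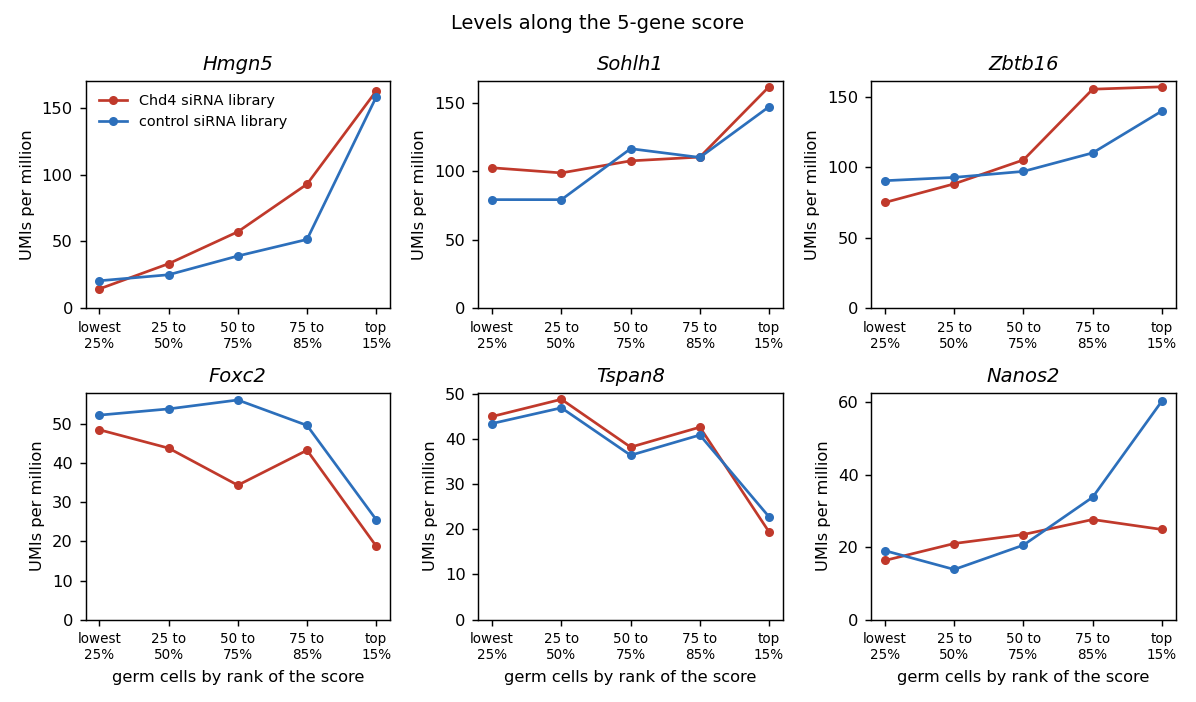
Levels of 6 genes (CPM, vertical axes from 0) in 5 bins of germ cells ranked by the score (horizontal axes), in the Chd4 siRNA library (red) and the control siRNA library (blue). Hmgn5 is higher in each further bin, to 163 and 159 CPM in the top 15%, Foxc2 and Tspan8 are lowest in that bin, and Nanos2 differs between the libraries there, at 24.9 and 60.2 CPM.

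The leading genes were not detected in every Nanos3/Egr4-high cell. At 9000 UMIs per cell, where 0 UMIs do not show that a transcript is absent, 51 of 93 cells of the Chd4 siRNA library and 50 of 102 of the control siRNA library had an Hmgn5 UMI. Gm9112 was found in 24 of 51 cells with an Hmgn5 UMI and 15 of 42 without one in the Chd4 siRNA library, and in 27 of 50 and 16 of 52 in the control siRNA library. Sox3 was found in 7 of 50 cells with a Nanos3 UMI and 2 of 43 without in the Chd4 siRNA library, and in 11 of 60 and 2 of 42 in the control siRNA library, counts too small to order.

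Nanos3/Egr4-high cells were 108 of 760 germ cells, 14.2% (11.8 to 16.9), in the Chd4 siRNA library and 116 of 730, 15.9% (13.3 to 18.7), in the control siRNA library. The difference of −1.68 points (−5.33 to 1.95) had an interval that included 0. It depended on the score's genes: without Asb9 it was −3.83 points (−7.48 to −0.19), without Nanos3 0.47 and without Pdk1 1.27.

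Chd4 itself was lower in Nanos3/Egr4-high cells of the Chd4 siRNA library, with 223 CPM, against 419 CPM in those of the control siRNA library, a log2 ratio of −0.91 (−1.10 to −0.73). In other germ cells it had 258 CPM (Chd4 siRNA) against 556 CPM (control siRNA), −1.11 (−1.17 to −1.04). The 13 measured subunit genes of NuRD had medians of 0.03 and −0.02 in Nanos3/Egr4-high cells over other germ cells of the Chd4 siRNA and control siRNA libraries. Among 2685 genes with at least 200 UMIs in Nanos3/Egr4-high cells, 23 (0.857%) were at least 1.5-fold higher under Chd4 siRNA and 41 (1.53%) lower, and with TMM scaling 12 and 47. In other germ cells 37 of 7833 (0.472%) were higher and 83 (1.06%) lower. Of the 64 genes past 1.5-fold in Nanos3/Egr4-high cells, 63 had the same sign in other germ cells and 31 were past 1.5-fold there too. Both cell sets come from the same libraries, and no share of equal signs over all 2685 genes is given. The count therefore only describes these genes. The higher ones by rank included Tgfb1, the growth factor TGF-beta 1, with 92.7 CPM (Chd4 siRNA) against 50.02 CPM (control siRNA) and a log2 ratio of 0.89 (0.50 to 1.29), against 0.29 (0.14 to 0.44) in other germ cells. Ddit3, a transcription factor of the integrated stress response, had 94.6 CPM against 52.9 CPM, 0.84 (0.46 to 1.23), against 0.17 (0.04 to 0.30) in other germ cells, and Ccng1, a target of p53, 0.81 (0.49 to 1.14) against 0.32 (0.19 to 0.45). Reep5, a protein that shapes endoplasmic reticulum, had 0.75, Dpm1, an enzyme of mannose transfer to proteins, 0.83, and Ngfrap1 0.78. Whether these effects differ between the cell sets was not tested. The lower ones included Bod1, a protein of chromosome biorientation, with 47.9 CPM (Chd4 siRNA) against 106 CPM (control siRNA) and −1.15 (−1.55 to −0.76), Grcc10 with −1.004 (−1.29 to −0.72), and 3 predicted loci, Gm10076 with −1.48, Gm8186 with −1.22 and Gm2000 with −0.87. Gm8186 is annotated as a processed pseudogene, so its reads may be shared with its parent gene.

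**Figure D4:**
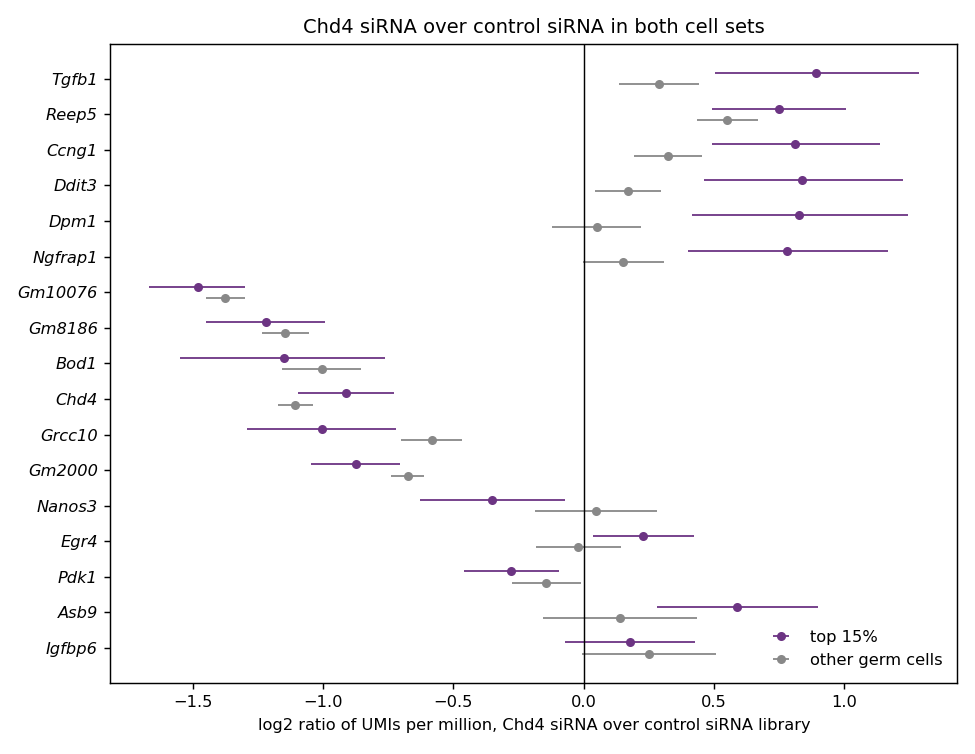
Log2 ratio of the Chd4 siRNA library over the control siRNA library (horizontal axis) in Nanos3/Egr4-high cells (purple) and other germ cells (grey), for the 6 higher and 6 lower genes ranked first, Chd4 included, and the 5 score genes. Points are ratios of summed CPM and bars 95% intervals of counting error. Gm10076 lies at −1.48 and Chd4 at −0.91 in Nanos3/Egr4-high cells.

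The score genes, which chose these cells over both libraries together, had log2 ratios of Chd4 siRNA over control siRNA of −0.35 for Nanos3, 0.23 for Egr4, −0.28 for Pdk1, 0.59 for Asb9 and 0.18 for Igfbp6 in Nanos3/Egr4-high cells. They ran in both directions. Nanos2, named here after its values were seen, had unequal ratios in the libraries. Its level was 24.9 CPM in Nanos3/Egr4-high cells of the Chd4 siRNA library, against 21.2 CPM in other germ cells, and 60.2 CPM in those of the control siRNA library, against 19.6 CPM. The log2 ratios were 0.23 (−0.29 to 0.72) and 1.62 (1.26 to 1.97). In the control siRNA library 1 cell held 17 of the 106 Nanos2 UMIs. The Nanos2 UMIs of the 5 richest cells of each set were then left out, with total UMIs unchanged. This gave 16.4 CPM (Chd4 siRNA) and 38.6 CPM (control siRNA) in Nanos3/Egr4-high cells, against 19.1 and 17.7 CPM in other germ cells. It took 14 of 41 and 38 of 106 UMIs from Nanos3/Egr4-high cells. From the larger sets of other germ cells it took 22 of 224 and 19 of 193, so the levels are lowered unequally. A Nanos2 UMI was found in 28 of 108 Nanos3/Egr4-high cells of the Chd4 siRNA library and 51 of 116 of the control siRNA library. The difference between the libraries was not tested.

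Markers of other testis cell types were rare in the set. Sertoli markers summed to 24.9 CPM (Chd4 siRNA) and 14.2 CPM (control siRNA) in Nanos3/Egr4-high cells, against 24.4 and 25.5 CPM in other germ cells, with Amh and Rhox8 at 0. Leydig markers summed to 1.82 and 1.14 CPM, against 1.80 and 2.74 CPM, and 4 of 5 were at 0. Macrophage and blood markers, with 5 of 8 at 0, summed to 18.2 and 18.8 CPM, against 15.99 and 13.9 CPM, and endothelial markers to 10.9 and 11.4 CPM, against 13.7 and 13.8 CPM. Spermatid markers summed to 9.70 and 6.25 CPM, against 7.48 and 7.82 CPM, all from Tnp1, with the other 4 at 0.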

How the data were processed

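The deposited 10x matrices hold raw counts of UMIs per gene and cell for 2 libraries, 1 per condition. The submitters' processing notes list Cell Ranger 2.1.0, Seurat and mm10 without saying what each did. Any filter on cells before deposit is unknown from the sources used here. Of 27998 matrix rows, 26893 have a gene name, and the other 1105 rows stayed out of totals. Each matrix ends inside its last cell, which was left out. A minimum of 1000 UMIs per cell removed 2 cells of the Chd4 siRNA library and 0 of the control siRNA library, 6 and 7 cells tied between the gates were left out, and 92 and 79 cells were set aside as fibroblast-like. UMIs of the named rows came to 15920307 in the Chd4 siRNA library and 14826257 in the control siRNA library.

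Sums of UMIs were divided by their total to give CPM. Intervals of ratios are exact conditional binomial 95% intervals, those of shares Clopper-Pearson and those of differences Newcombe, and a count of 0 allows a share of 3 counts. Named genes were the 12 higher and 12 lower genes with the interval bound nearest to 0 furthest out, up to 4 per gene list by the same bound, and, within the chosen cells, the 6 higher and 6 lower between libraries. Further genes were named after their values were seen, to show the range of a list. The members, the gene lists and the rules were chosen with earlier results of these data known. Phases were called with scanpy 1.11.5 in Python 3.11.15 after thinning to 9000 UMIs. TMM factors (edgeR 4.0.16) and DESeq2 1.42.0 size factors, in R 4.3.3, served as alternative scalings only. Gene positions came from GENCODE M21, promoter windows from RefSeq. The calculation of ratios was checked on simulated sums without clustering of UMIs within cells, so the check does not cover such clustering.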

Additional observations from a re-analysis of the deposited data

Results flagged for a closer look

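The matrix rows that the gene list does not name held 12.6% of UMIs in the Chd4 siRNA library and 12.1% in the control siRNA library. They are data outside every comparison above, and no gene was assigned to them.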

How the results depend on the processing

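No paired analysis was possible because each condition is 1 library of mixed replicates, and for the same reason no replicate could be left out. Counts of genes moved most with the minimum of UMIs per gene: at 50 UMIs, 272 genes were higher and 337 lower in Nanos3/Egr4-high cells and 502 passed 1.5-fold between libraries within them, at 1000 UMIs 12, 11 and 16, and with no minimum 744, 1895 and 5766. With cells thinned to 9000 UMIs, 60 genes were higher, 31 passed 1.5-fold between libraries and the Chd4 log2 ratio was −1.22. Cells chosen on 50% of their UMIs gave 51, 52 and 36 genes and −0.63 for Chd4, and the top 10% gave 157 lower genes. Cells called G1 gave 67 higher genes and 28 between libraries. Cells called S gave 45 and 27, a Chd4 ratio of −1.52 and a difference in share of −6.53 points, and cells called G2/M gave 24, 41 and 34 and −0.42. The difference in share changed sign in 3 of 15 alternatives, without Nanos3 or Pdk1 in the score and in G1 cells (0.77 points). The smaller sums of these subsets test fewer genes, and otherwise the cause was not tested. Signs turned for Klf2 (−0.47 on 50% of the UMIs and −1.04 in S cells), 2810417H13Rik (0.47 in G1 and 0.14 in G2/M cells), Lin28a (−0.84 in S cells) and Egr2 (0.34 in S cells), each in the library nearer to no difference. The other 23 of the 24 genes ranked first kept their sign, in the library nearer to no difference, under all 22 alternatives. Much of this was fixed in advance. The genes were ranked by distance from 0 in these same cells, and a changed minimum of UMIs per gene leaves a ratio as it is. TMM scaling shifted log2 ratios only by −0.08 (Chd4 siRNA) and −0.05 (control siRNA). Of the main 116 higher genes, 38 were shared with the thinned cells and 33 with the cells chosen on 50% of their UMIs. A gene near 200 UMIs has few UMIs in the chosen cells, so smaller differences were not detectable at this depth.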
